A study of Homo sapiens with 6 samples.

Results

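Wild-type CI-huVEC made up 3 of the 6 samples in a study of endothelial cells with and without CCM3, a gene mutated in familial cerebral cavernous malformation. CI-huVEC cells, from InSCREENeX, are immortalised human cells from the inner lining of the umbilical cord vein (HUVEC). The 3 libraries carrying the wild-type label, named WT 1, WT 2 and WT 4, were all chosen, and their transcript levels are described gene by gene, with no comparison to the knockout cells. No treatment is named for them. All 3 came from cells at passage 31 and share the clone label HKO, whose meaning the labels do not give. The labels do not say whether the 3 are separate clones, cultures or extractions, so the spread between them may be technical. Total RNA was turned into stranded mRNA libraries, and reads were counted for 28514 gene names.

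Endothelial cells form the inner wall of every vessel. They hold to each other through VE-cadherin junctions, sense growth factors of the VEGF, angiopoietin, BMP and Notch families, store von Willebrand factor in Weibel-Palade bodies, and keep blood from clotting on their surface. Arteries, veins, lymphatics and the vessels of each organ add their own transcription factors and receptors to this common programme, and part of that pattern is known to fade in culture.

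The libraries held 32919491 (WT 1), 32512367 (WT 2) and 28392460 (WT 4) counted reads. A count of 0 in a library allows up to 3 counts, or 0.0911 to 0.106 CPM, and this floor covers counting error only. Levels are given in FPKM, fragments per kilobase of gene length scaled for library depth, so that genes of different length can be set side by side, each as the mean ± SD of 3 libraries. A gene is called expressed here when it reached 1 FPKM in 3 of 3 libraries. That held for 11280 genes, or 39.6% of all rows, and these took 99.4% of the counts. Among rows matched to a protein-coding RefSeq gene (protein-coding rows) the share was 54.8%. That is the closer background for lists of protein-coding genes. Another 8581 genes, or 30.1%, had 0 counts in all 3 libraries, and 8653 genes lay in between with 0.619% of the counts. Among expressed genes the median level was 9.88 FPKM, the 10th percentile 2.09 and the 90th percentile 53.9. A mean of 100 FPKM or more was reached by 512 genes, which held 29.97% of the counts.

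**Figure D1:**
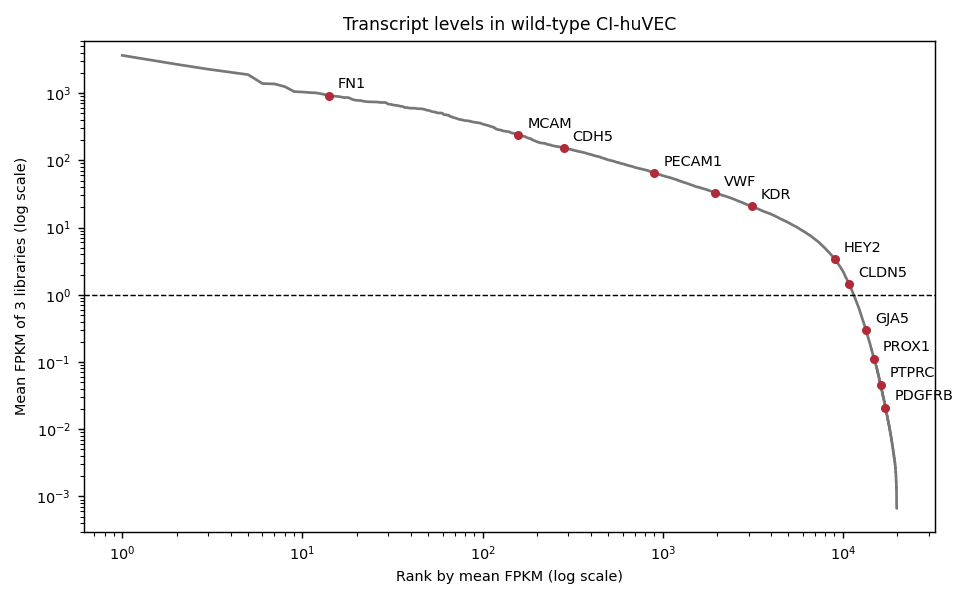
Mean FPKM of the 3 libraries (vertical, log scale) against the rank of each gene by that mean (horizontal, log scale). The grey line runs over all genes with a count, red points are named genes, and the dashed line is 1 FPKM. FN1 stands at rank 14, CDH5 at 282, PECAM1 at 900, VWF at 1958 and KDR at 3116, while PTPRC and PDGFRB lie below 0.1 FPKM.

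The 4 genes that mark the cells as endothelial were all expressed. CDH5, which encodes VE-cadherin, stood at 156, 151 and 148 FPKM in WT 1, WT 2 and WT 4 (152 ± 3.99, SD, n = 3). PECAM1, the junctional adhesion molecule CD31, stood at 64.0, 64.6 and 66.7 FPKM (65.1 ± 1.44). VWF, the platelet-binding glycoprotein, stood at 33.0, 33.0 and 32.4 FPKM (32.8 ± 0.382). KDR, the main signalling receptor for VEGF, stood at 21.0, 19.4 and 21.6 FPKM (20.7 ± 1.16). The 4 genes kept this order in each library, and no library's value for 1 of them reached the values of the next.

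The 8 highest rows carried names that the reference tables do not annotate (DQ590013, BC018860, JB137814, STRF6, OK/SW-cl.16, JB137816, cytochrome b and TVAS5), at means of 1244 to 3632 FPKM. DQ590013, JB137814 and JB137816 owe part of that rank to length: the ratio of counts to FPKM gives a gene length of about 24 bases for each. The highest annotated gene was ANXA2, annexin A2, a calcium-dependent membrane-binding protein and surface receptor for plasminogen activation, at 1027, 1045 and 1081 FPKM (1051 ± 27.3). GAPDH, the glycolytic dehydrogenase, stood at 1035, 1051 and 1023 FPKM (1036 ± 13.9). These 2 genes could not be ordered, since their ranges overlap.

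RPL7A (1016 ± 17.5 FPKM) and RPS6 (964 ± 8.75) encode ribosomal proteins, as does RPS4X (900 ± 37.5). TPT1, translationally controlled tumour protein, stood at 1003 ± 25.9 FPKM and NPM1, the nucleolar chaperone nucleophosmin, at 857 ± 29.5. The 20 highest also held FN1 (913 ± 30.6 FPKM), TMSB4X, which binds monomeric actin (886 ± 38.8), ACTG1, cytoplasmic gamma-actin (858 ± 22.3), and VIM, the intermediate filament vimentin (801 ± 19.04). Ribosomal protein genes were expressed in 84 of 86 cases (97.7%, against 54.8% of protein-coding rows) and held 3.92% ± 0.0577 of the counts. All 24 genes of the actin cytoskeleton list were expressed (100%, against 54.8% of protein-coding rows), with a median of 152 FPKM.

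Many transcripts of the translation machinery begin with a run of pyrimidines at the start site, through which mTOR signalling is known to control their translation. The 30 bases around the annotated start of the 5 highest such genes (10 before it and 20 from it, RefSeq GRCh38.p14, gene strand, 5′ to 3′) are shown because these genes lead the list of levels, with the searched words CTTTCC and CTTTTCC in capitals.
RPL7A: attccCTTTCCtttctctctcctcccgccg
RPS6: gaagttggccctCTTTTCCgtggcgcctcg
TPT1: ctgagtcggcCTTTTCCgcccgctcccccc
NPM1: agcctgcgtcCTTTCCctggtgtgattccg
RPS4X: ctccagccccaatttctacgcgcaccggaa
The first 4 hold 1 of the words and RPS4X holds neither. On the gene strand, 1.89% of all 27305 promoters in the table hold either word in this window. The 5 genes were picked by level, and a match is a description of the letters only.

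By share of counts, which also rises with gene length, the order was different. FN1 took 1.01% ± 0.0336 of all counts, the largest share of any gene. THBS1, thrombospondin 1, took 0.425% ± 0.00789. EEF1A1, the elongation factor that brings tRNA to the ribosome, took 0.334% ± 0.00894, ACTG1 0.226% ± 0.00622 and the chaperone gene HSP90AB1 0.221% ± 0.00351. The 10 most counted also held the unannotated rows BC018860, STRF6, OK/SW-cl.16 and TVAS5. The 10 together held 4.29% ± 0.0850 of the counts.

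Of 36 genes known as general endothelial markers, 35 were expressed (97.2%, against 39.6% of all rows and 54.8% of protein-coding rows). The median over all 36 was 43.1 FPKM, while the 9.88 given above covers expressed rows only, of every kind. The highest of the 36 was MCAM, the adhesion molecule CD146, at 249, 240 and 230 FPKM (240 ± 9.45). MMRN1, the secreted multimerin 1, stood at 224, 224 and 244 FPKM (230 ± 11.6), and ECSCR, an endothelial surface protein linked to cell movement, at 217, 223 and 224 (221 ± 3.55). PROCR, the receptor for protein C, stood at 175, 180 and 171 FPKM (175 ± 4.22). The ranges of MCAM and MMRN1 overlap, while PROCR lay below the first 3 in every library.

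At the low end, ADGRF5, an adhesion receptor listed under its older name GPR116, was the only member not called expressed, at 0.841 ± 0.101 FPKM. CLDN5, the claudin of tight endothelial junctions, stood at 1.42, 1.72 and 1.17 FPKM (1.44 ± 0.275). CD34 stood at 2.64 ± 0.0245 FPKM and THBD, the anticoagulant receptor thrombomodulin, at 2.32 ± 0.0490. These low members were read after their values were seen.

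**Figure D2:**
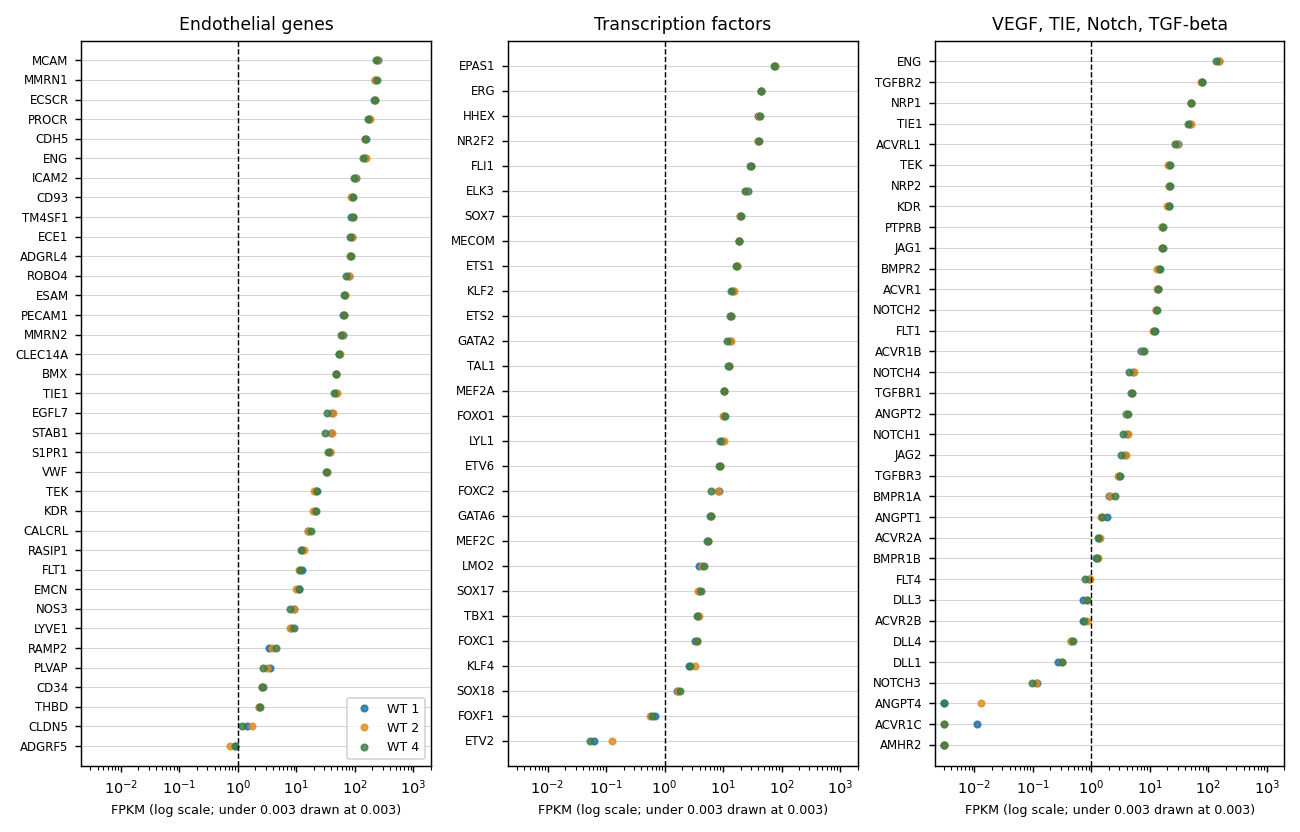
FPKM (horizontal, log scale) of general endothelial genes, endothelial transcription factors, and receptors and ligands of the VEGF, angiopoietin, Notch and TGF-beta or BMP families. Each point is 1 library (WT 1 blue, WT 2 orange, WT 4 green) and the dashed line is 1 FPKM. Points of a gene lie close together across most of the range, and ADGRF5 is the only general endothelial gene left of the line.

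The next sequences come from expressed endothelial genes that were picked to differ in CG pairs. Their difference says nothing about endothelial genes as a group. The 120 bases before the annotated start (RefSeq GRCh38.p14, gene strand, 5′ to 3′, CG pairs in capitals) are shown for 2 genes with many CG pairs and 2 with few, all of them above 20 FPKM. They lie at chr4:55125596-55125715 on the minus strand for KDR, chr21:38660668-38660787 on the minus strand for ERG, chr1:43300862-43300981 on the plus strand for TIE1 and chr4:89879391-89879510 on the plus strand for MMRN1.
KDR: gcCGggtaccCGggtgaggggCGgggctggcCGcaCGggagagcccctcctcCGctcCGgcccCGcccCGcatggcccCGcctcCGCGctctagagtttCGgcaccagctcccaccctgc
ERG: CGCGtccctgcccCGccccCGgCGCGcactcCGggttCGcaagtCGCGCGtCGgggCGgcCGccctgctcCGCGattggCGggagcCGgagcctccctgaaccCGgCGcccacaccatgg
TIE1: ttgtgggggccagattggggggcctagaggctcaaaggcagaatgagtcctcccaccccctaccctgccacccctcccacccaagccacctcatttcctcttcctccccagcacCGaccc
MMRN1: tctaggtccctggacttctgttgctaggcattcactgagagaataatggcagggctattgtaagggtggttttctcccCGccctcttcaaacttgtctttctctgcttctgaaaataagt
Over the 300 bases from 250 before to 50 after the start, ERG has 53 CG pairs and KDR 22, while MMRN1 has 2 and TIE1 has 1. The median over all 27305 promoters is 14. In the mean, MMRN1 stood at 230 FPKM, TIE1 at 47.5, ERG at 45.0 and KDR at 20.7, and the ranges of TIE1 and ERG overlap. A relation between CG pairs and level was not tested.

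Transcription factors of the endothelial lineage were expressed in 26 of 28 cases (92.9%, against 54.8% of protein-coding rows), with a median of 10.4 FPKM. EPAS1, the hypoxia-inducible factor HIF-2 alpha, was highest at 75.8, 75.9 and 73.5 FPKM (75.1 ± 1.35). ERG, the ETS factor that maintains endothelial gene expression, stood at 44.5, 45.1 and 45.3 FPKM (45.0 ± 0.452). HHEX, a homeobox factor, stood at 39.6, 41.9 and 42.8 FPKM (41.4 ± 1.68), and NR2F2, also called COUP-TFII and known as a venous regulator, at 39.9, 40.2 and 40.6 (40.2 ± 0.327). HHEX and NR2F2 overlap, and EPAS1 lay above all 3 others in every library.

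The 2 factors that were not called expressed were FOXF1 at 0.629 FPKM and ETV2, an early inducer of the endothelial lineage in the embryo, at 0.0803. Within the wider families, GATA2 (12.8 ± 0.882 FPKM), GATA6 (6.08 ± 0.196) and GATA3 (2.57 ± 0.174) were expressed, whereas GATA1, GATA4 and GATA5 had 0 counts. KLF6 led its family at 119 ± 2.08 FPKM, and KLF2, known to be induced by laminar flow, stood at 14.7 ± 1.06. Of the SOX family, 6 of 19 members were expressed (31.6%, against 39.6% of all rows and 54.8% of protein-coding rows). SOX4 (25.4 FPKM), SOX7 (19.7) and SOX12 (4.88) led it. Of the forkhead family, 15 of 43 were expressed (34.9%), a share near that of all rows but below that of protein-coding rows. FOXM1 (19.9 FPKM), a factor of the dividing cell, FOXJ3 (10.7) and FOXO1 (10.3) led it.

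HOX genes, which carry positional identity along the body axis, were expressed in 18 of 39 cases (46.2%). That lies between the 39.6% of all rows and the 54.8% of protein-coding rows. The split by cluster was 8 of 11 for HOXA, 6 of 10 for HOXB, 4 of 9 for HOXD and 0 of 9 for HOXC, whose rows held 3 counts in all. HOXA5 was highest at 15.7, 15.8 and 15.9 FPKM, followed by HOXB7 (12 ± 0.247) and HOXB2 (8.48 ± 0.0559).

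Receptors for the VEGF family were expressed with the co-receptor on top. NRP1, neuropilin 1, stood at 51.2, 49.8 and 50.6 FPKM (50.5 ± 0.720), NRP2 at 21.1, 21.1 and 21.7 (21.3 ± 0.358) and FLT1, VEGF receptor 1, at 12.5, 11.3 and 11.7 (11.8 ± 0.603). FLT4, VEGF receptor 3 and a receptor for VEGF-C, stood at 0.925, 0.934 and 0.778 FPKM and was not called expressed. KDR exceeded FLT1 by 1.75-fold ± 0.0901 within the same library. NRP2 lay above KDR in each library, but their ranges overlap. Among the ligands, PGF (25.6 ± 0.962 FPKM) and VEGFC (24.8 ± 0.387) overlapped, VEGFB stood at 7.06 ± 0.228 and VEGFA at 5.34 ± 0.264. VEGFD, listed as FIGF, stood at 0.0550 FPKM.

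Both angiopoietin receptors were expressed. TIE1, the orphan receptor of the pair, stood at 48.0, 50.3 and 44.2 FPKM (47.5 ± 3.06) and TEK, the angiopoietin receptor TIE2, at 21.4, 20.4 and 22.4 (21.4 ± 0.988), a ratio of 2.22 ± 0.244. PTPRB, the endothelial phosphatase that acts on TEK, stood at 16.5 ± 0.316 FPKM. ANGPT2, the ligand released from endothelial storage bodies, stood at 4.01 ± 0.148 FPKM, ANGPT1, the ligand made mainly by mural cells, at 1.62 ± 0.224, and ANGPT4 at 0.00433.

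Of the Notch receptors, NOTCH2 was highest at 12.8, 12.9 and 13.3 FPKM (13 ± 0.261). NOTCH4, known as the endothelial Notch, stood at 4.97 ± 0.429 FPKM and NOTCH1 at 3.96 ± 0.391, with NOTCH4 above NOTCH1 in each library. NOTCH3, the receptor of mural cells, stood at 0.109 FPKM. JAG1 was the leading ligand at 17, 16.4 and 16.1 FPKM (16.5 ± 0.449), followed by JAG2 at 3.67 ± 0.357. DLL4, the ligand of arterial and tip cells, stood at 0.453, 0.452 and 0.485 FPKM, and DLL3 (0.802) and DLL1 (0.301) were also below the threshold.

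Receptors of the TGF-beta and BMP families were expressed in 11 of 14 cases (78.6%, against 54.8% of protein-coding rows). ENG, the co-receptor endoglin, led at 151, 154 and 138 FPKM (147 ± 8.46), with TGFBR2 at 76.0 ± 2.20, ACVRL1, the endothelial BMP receptor ALK1, at 28.9 ± 1.27 and BMPR2 at 14.2 ± 0.786. AMHR2, the receptor for anti-Müllerian hormone, had 0 counts.

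Of 40 listed G-protein-coupled receptors 14 were expressed (35.0%), near the 39.6% of all rows and below the 54.8% of protein-coding rows. F2R, the thrombin receptor PAR1, stood at 102, 92.6 and 98.2 FPKM (97.5 ± 4.62), F2RL1 (PAR2) at 39.98 ± 1.97, S1PR1, the sphingosine 1-phosphate receptor that tightens junctions, at 36.7 ± 1.2 and CALCRL, which binds adrenomedullin together with RAMP2, at 16.5 ± 1.21. S1PR5, PTGER1, PTGER2, PTGER3, BDKRB1 and AGTR2 had 0 counts in all 3 libraries. Of 10 Toll-like receptors only TLR4, which senses bacterial endotoxin, was expressed, at 22.5, 21.1 and 22.2 FPKM. The other 9 stood between 0 and 0.400 FPKM, with TLR7 and TLR10 at 0 counts.

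Receptor tyrosine kinases outside the VEGF and TIE families were expressed in 16 of 34 cases (47.1%). That lies between the 39.6% of all rows and the 54.8% of protein-coding rows. AXL (55.2 ± 1.91 FPKM), EPHA2 (33.7 ± 3.12), EPHB2 (22.6 ± 1.68) and EPHB4 (17.2 ± 1.11) led the list. FLT3, a receptor of blood progenitors, had 0 counts. Cytokine receptors were expressed in 14 of 17 cases (82.4%, against 54.8% of protein-coding rows). IL1RL1, the receptor for interleukin 33 also called ST2, stood out at 209, 214 and 224 FPKM (216 ± 7.82), with IL6ST at 66.7 ± 3.38, IL13RA1 at 40.8 ± 1.22 and IFNGR2 at 38.2 ± 0.554.

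The matrix was dominated by a few glycoproteins. FN1, fibronectin, stood at 927, 878 and 935 FPKM (913 ± 30.6). THBS1 stood at 596, 575 and 584 FPKM (585 ± 10.3), CCN2, the connective tissue growth factor listed as CTGF, at 575, 591 and 586 (584 ± 8.17), and EFEMP1, fibulin 3, at 568, 566 and 576 (570 ± 5.30). FN1 lay above the other 3 in each library, and THBS1 and CCN2 could not be ordered. Of the matrix glycoproteins in the table, 19 of 29 were expressed (65.5%, against 54.8% of protein-coding rows). Among proteoglycans 9 of 17 were expressed (52.9%), near the share of protein-coding rows. The highest were SRGN, the granule proteoglycan serglycin (387 ± 8.75 FPKM), BGN, biglycan (119 ± 9.29), HSPG2, perlecan (34.0 ± 3.68), and SDC4 (21.0 ± 0.580). GPC6 had 0 counts.

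Basement membrane genes were expressed in 15 of 22 cases (68.2%, against 54.8% of protein-coding rows). The chains for a laminin of the endothelial type were all present. LAMB1 stood at 188, 184 and 186 FPKM (186 ± 1.95), LAMA4 at 94.4, 90.5 and 93.3 (92.8 ± 2.01) and LAMC1 at 91.4, 87.6 and 90.7 (89.9 ± 2.01). LAMA4 exceeded LAMA5, the other alpha chain of endothelial laminins, by 18.6-fold ± 2.92 in FPKM. COL4A1 (169 ± 8.65 FPKM) exceeded its partner chain COL4A2 (103 ± 7.67) by 1.64-fold ± 0.0851. Of all collagen genes 12 of 44 were expressed (27.3%, against 54.8% of protein-coding rows), and after the type IV pair came COL5A2 at 72.5 ± 2.90 FPKM.

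Enzymes that crosslink or modify the matrix were led by TGM2, transglutaminase 2 (255 ± 9.63 FPKM), LOXL2, a lysyl oxidase (145 ± 7.41), and the lysyl hydroxylases PLOD2 (133 ± 3.32) and PLOD1 (79.7 ± 4.75). Among proteases and their inhibitors 19 of 25 were expressed (76%, against 54.8% of protein-coding rows). The interstitial collagenase MMP1 stood at 168, 155 and 160 (161 ± 6.66), the gelatinase MMP2 at 134, 132 and 126 (130 ± 4.21) and the membrane protease MMP14 at 113, 110 and 106 (110 ± 3.84). MMP3 and ADAMTS5 had 0 counts.

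Integrins, the receptors for that matrix, were concentrated in few chains. ITGA5, the alpha chain of the fibronectin receptor, stood at 380, 372 and 359 FPKM (370 ± 10.4), 5.91-fold ± 0.428 above ITGAV (62.9 ± 3.52), with ITGA2 (29.8 ± 1.52) and ITGA6 (27.2 ± 0.907) next. ITGB1 stood at 261, 249 and 268 FPKM (259 ± 9.62), ITGB3 at 44 ± 1.4, ITGB5 at 43.3 ± 1.54 and ITGB4 at 1.81 ± 0.198. ITGB8 (0.997), ITGB6 (0.102), ITGB7 (0.0940) and the leukocyte chain ITGB2 (0.0810) were below the threshold in at least 1 library. In all, 8 of 18 alpha (44.4%) and 4 of 8 beta chains (50%) were expressed. Both shares lie between the 39.6% of all rows and the 54.8% of protein-coding rows. ITGAD, another leukocyte chain, had 0 counts.

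**Figure D3:**
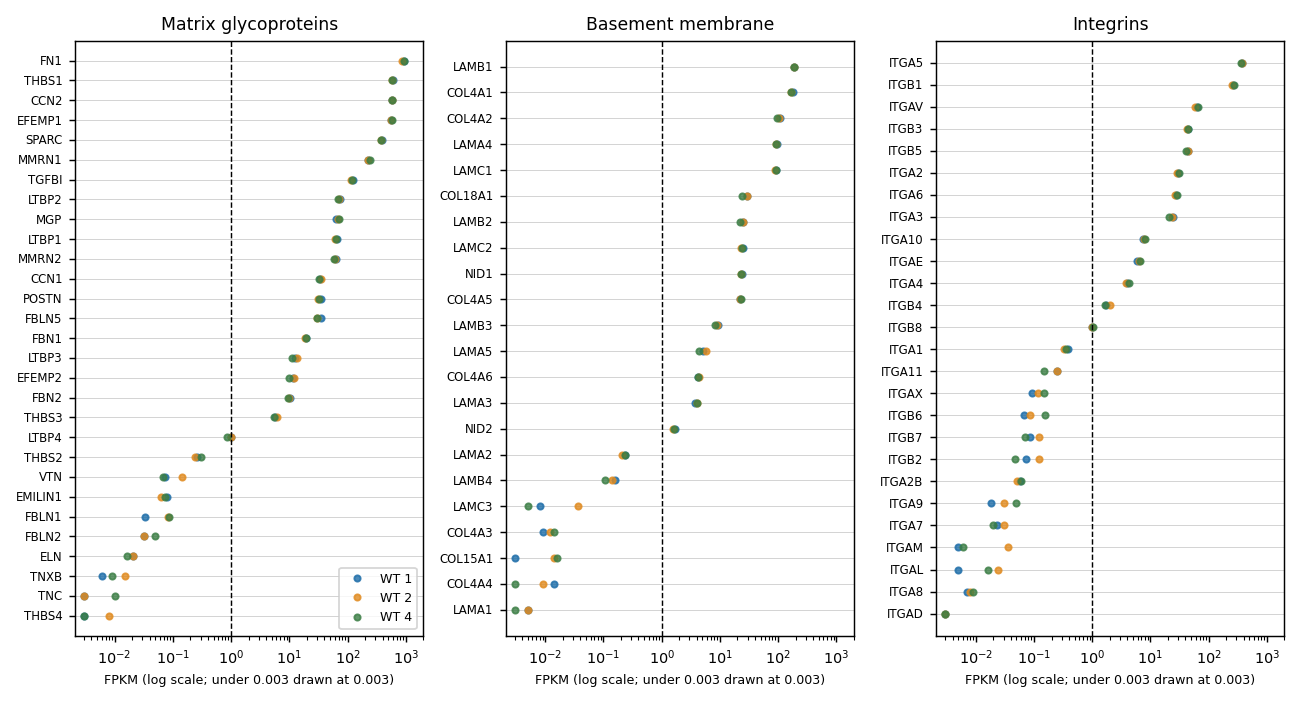
FPKM (horizontal, log scale) of matrix glycoproteins, basement membrane genes and integrin chains. Each point is 1 library (WT 1 blue, WT 2 orange, WT 4 green) and the dashed line is 1 FPKM. FN1 is the highest gene shown, and 19 of 29 glycoproteins, 15 of 22 basement membrane genes and 12 of 26 integrin chains lie right of the line in all 3 libraries.

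Genes known from veins were expressed in 7 of 11 cases and genes known from arteries in 11 of 17. The shares were 63.6% and 64.7%, against 39.6% of all rows and 54.8% of protein-coding rows. On the venous side NR2F2 and NRP2 are described above, ADGRG6, an adhesion receptor listed as GPR126, stood at 32.2, 32.6 and 33.7 FPKM (32.8 ± 0.742), and EPHB4, the venous ephrin receptor, at 17.7, 18.1 and 16 (17.2 ± 1.11). VCAM1 stood at 3.11 ± 0.216 FPKM, ACKR1, the chemokine receptor of venules listed as DARC, at 2.75 ± 0.443 and IL1R1 at 1.69 ± 0.136. SELP (0.897), CPE (0.103) and APLNR (0.0360) were below the threshold, and TSHZ2 had 0 counts. The summed level was 119 to 121 FPKM over the 3 libraries for the 11 venous genes and 183 to 193 FPKM for the 17 arterial genes. The lists differ in length, so these sums do not rank the 2 sides. The median member stood at 2.75 FPKM in the venous list and 3.72 in the arterial list.

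On the arterial side NRP1, BMX, a tyrosine kinase (47.9 ± 0.548 FPKM), FBLN5, fibulin 5 (31.6 ± 2.46), and JAG1 led. EFNB2, the arterial ephrin, stood at 7.14, 6.96 and 7.05 FPKM (7.05 ± 0.0920) and HEY2, a transcription factor downstream of Notch, at 3.52, 3.23 and 3.52 (3.42 ± 0.166). GJA5, the arterial connexin 40, stood at 0.300 FPKM and GJA4, connexin 37, at 0.0717. NR2F2 exceeded HEY2 by 3.5, 3.64 and 3.53 on the log2 scale of FPKM, and EPHB4 exceeded EFNB2 by 1.31, 1.38 and 1.18. Both differences had the same sign in all 3 libraries. They compare different genes, so gene length and mappability enter them, and the size of each shifts with the scale used.

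Lymphatic genes were expressed in 2 of 9 cases (22.2%, against 54.8% of protein-coding rows). LYVE1, the hyaluronan receptor, stood at 8.27, 7.74 and 8.98 FPKM (8.33 ± 0.622) and TBX1 at 3.70 ± 0.169. PROX1, the transcription factor that defines lymphatic endothelium, stood at 0.0940, 0.107 and 0.136 FPKM, and RELN (0.113) and STAB2 (0.0307) were also below the threshold. PDPN, CCL21 and MRC1 had 0 counts.

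Tip-cell genes, known from the leading cells of sprouts, were expressed in 7 of 11 cases (63.6%, against 54.8% of protein-coding rows), a mixed picture. ESM1, the secreted proteoglycan endocan, stood at 241, 233 and 248 FPKM (241 ± 7.66), LXN at 67.2 ± 2.80, APLN, the ligand apelin, at 56.3 ± 1.74, PGF at 25.6, CXCR4 at 3.72 ± 0.394 and NID2 at 1.61 ± 0.0563. The tip-cell genes UNC5B (0.212 FPKM) and KCNE3 (0.0420) were low, TRPC6 had 0 counts, and the apelin receptor APLNR stood at 0.0360 FPKM beside its ligand. Of 16 blood-brain barrier genes 8 were expressed (50%), near the share of protein-coding rows. The highest were the transferrin receptor TFRC (56.2 ± 0.997 FPKM), the lactate carrier SLC16A1 (53.6 ± 1.28), the amino acid carrier SLC38A5 (28.2 ± 0.972) and the glucose carrier SLC2A1 (11 ± 0.705). FOXF2, FOXQ1 and SLC22A8 had 0 counts. Genes known from liver, lung, kidney and other organ endothelium were expressed in 3 of 15 cases (20%, against 54.8% of protein-coding rows). These were RSPO3 at 5.30 ± 0.161 FPKM, PLVAP at 3.13 ± 0.406 and EHD3 at 2.43 ± 0.163. CLEC4G, FCN2, HPGD and GATA4 had 0 counts.

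**Figure D4:**
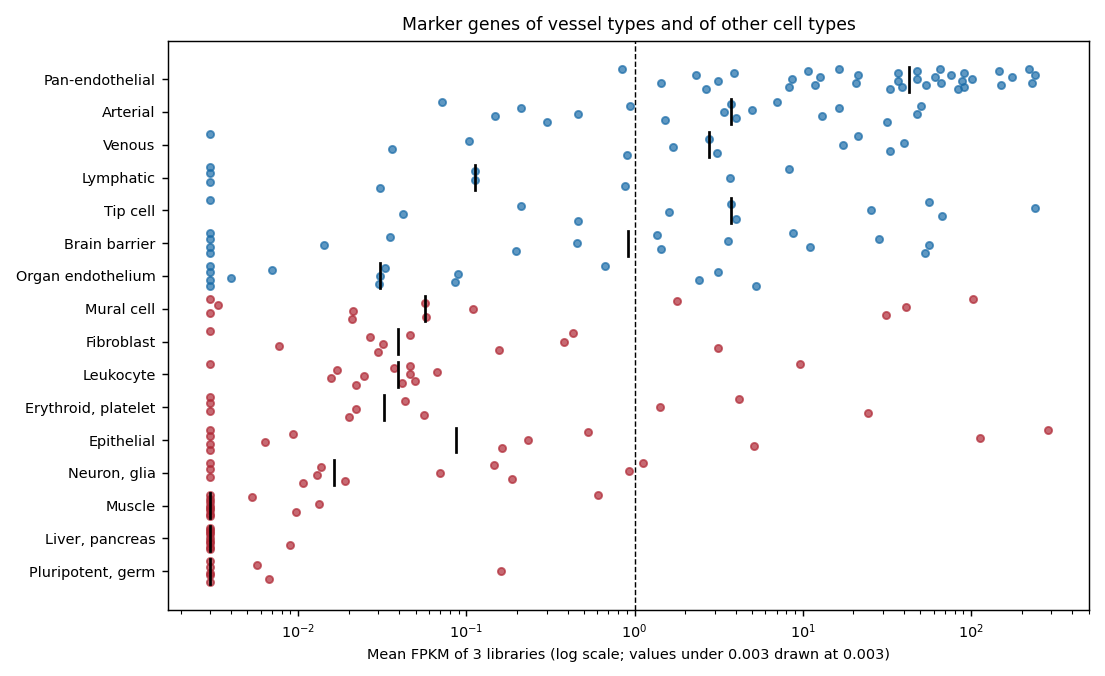
Mean FPKM of the 3 libraries (horizontal, log scale, values under 0.003 drawn at 0.003) for each gene of 7 endothelial lists (blue) and 9 lists for other cell types (red). Black bars are list medians and the dashed line is 1 FPKM. The general endothelial list has a median of 43.1 FPKM, while the medians of the 9 other cell types all lie below 0.1 FPKM.

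Markers of other cell types were mostly near 0. The counts of this paragraph stand against 54.8% of protein-coding rows expressed. Fibroblast markers were expressed in 1 of 10 cases, FAP at 3.12 ± 0.115 FPKM, with COL1A1 at 0.0297, COL3A1 at 0.157 and PDGFRA at 0.0320, and DPT at 0 counts. Leukocyte markers were expressed in 1 of 12 cases, the lysosomal protein CD68 at 9.65 ± 0.817 FPKM, which other cells also make, with PTPRC (CD45) at 0.0460. Neither muscle (0 of 12), liver and pancreas (0 of 10, of which 9 had 0 counts) nor pluripotent and germ cell markers (0 of 8) reached the threshold. In the neuron and glia list only MBP did, at 1.12 ± 0.0462 FPKM, and GFAP had 0 counts.

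Some markers of other cell types were high. The mural list had 4 of 12 members expressed (33.3%) and the epithelial list 3 of 12 (25%). The erythroid and platelet list had 2 of 10 (20%). These shares lie below the 54.8% of protein-coding rows. In the mural list, ANPEP, an aminopeptidase, stood at 107, 105 and 95.1 FPKM (102 ± 6.41), RGS5 at 40.3, 40.3 and 42.3 (40.9 ± 1.16) and TAGLN at 34.6, 30.9 and 27.7 (31.1 ± 3.46). The defining mural receptor PDGFRB stood at 0.0130, 0.0210 and 0.0290 FPKM, MYH11 at 0.0573 and CSPG4 at 0.0213, and DES and ABCC9 had 0 counts. The epithelial list showed the keratin KRT7 at 293, 302 and 261 FPKM (285 ± 21.4), KRT18 at 113 ± 3.39 and KRT8, its usual partner, at 5.16 ± 0.387. CDH1, KRT5, KRT14 and KRT20 had 0 counts, and EPCAM stood at 0.232 FPKM. In the erythroid and platelet list, HBB, beta-globin, stood at 23.1, 33.3 and 16.7 FPKM, and HBA2, whose reads may be shared with the near-identical HBA1, at 4.52, 4.42 and 3.63, while GP9 and HBG1 had 0 counts. The part of other cells in these values was not tested.

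Weibel-Palade body genes were expressed in 14 of 17 cases (82.4%, against 39.6% of all rows and 54.8% of protein-coding rows). At the top were IGFBP7 (250 ± 4.14 FPKM), CD63 (215 ± 2.07), EDN1, the vasoconstrictor endothelin 1 (194 ± 5.82), and PLAT, tissue plasminogen activator (58.0 ± 3.21). SELP stood at 0.900, 0.851 and 0.941 FPKM. In the coagulation list 10 of 14 were expressed (71.4%), including S100A10, the partner of ANXA2 (151 ± 2.50 FPKM), and the pathway inhibitor TFPI (56.8 ± 2.91), while tissue factor, F3, stood at 0.308 FPKM. Of the vasoactive genes 10 of 20 were expressed (50%), between the 39.6% of all rows and the 54.8% of protein-coding rows. CAV1, caveolin 1, stood at 208 ± 1.41 FPKM and NOS3, the endothelial nitric oxide synthase, at 9.18, 9.0 and 7.67 (8.62 ± 0.823). NOS2, EDN2, EDN3 and NPPC had 0 counts.

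Leukocyte adhesion molecules that inflammation is known to induce were low. ICAM2, which is constitutive, stood at 101 ± 3.41 FPKM, ICAM1 at 6.16 ± 0.499, VCAM1 at 3.11 ± 0.216 and SELE, E-selectin, at 0.325, 0.424 and 0.414. The chemokines CXCL8 (38.2 ± 0.717 FPKM, listed as IL8) and CXCL1 (29.4 ± 1.25), the cytokine IL6 (26.4 ± 2.77) and NFKBIA (20.4 ± 1.49) led the inflammatory list. Of that list 9 of 17 were expressed (52.9%), near the share of protein-coding rows, and TNF had 0 counts. Of the type I interferons only IFNE reached the threshold, at 1.49 ± 0.226 FPKM.

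Junction genes were expressed in 16 of 19 cases (84.2%, against 54.8% of protein-coding rows). Among them were CDH5, the catenins CTNNA1 (135 ± 3.52 FPKM) and CTNNB1 (56.0 ± 0.980), and GJA1, connexin 43 (115 ± 4.54). GJA1 exceeded GJA5 by 391-fold ± 74.2. The leading claudin was CLDN11, at 89.6, 89.3 and 86.2 FPKM (88.4 ± 1.86), which exceeded CLDN5 by 63.0-fold ± 10.9. CLDN12 stood at 6.31 ± 0.188 FPKM and CLDN7 at 4.25 ± 0.473.

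The cells carried the transcripts of dividing cells. Of 24 proliferation genes 23 were expressed (95.8%, against 54.8% of protein-coding rows), with a median of 34.6 FPKM. The list was led by the replication clamp PCNA (97.3 ± 1.32 FPKM), CDK4 (88.7 ± 0.984), the mitotic cyclin CCNB1 (86.9 ± 0.266) and RRM2 (65.2 ± 0.619). CCND2 was the only one below the threshold, at 0.353 FPKM. The inhibitor CDKN1A (p21) stood at 92.1, 96.9 and 90.4 FPKM (93.1 ± 3.39) beside MDM2 (24.9 ± 0.797), and CDKN2A, whose row covers all transcripts of the gene, at 4.45 ± 0.198. CDKN1C stood at 0.0567 FPKM. Of the telomere genes 10 of 11 were expressed (90.9%, against 54.8% of protein-coding rows). TERT, the catalytic subunit of telomerase, was the exception at 0.0780, 0.122 and 0.0630 FPKM.

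In glycolysis 23 of 29 genes were expressed (79.3%, against 54.8% of protein-coding rows). Among them were ENO1 (505 ± 10.1 FPKM), LDHB (428 ± 9.37) and LDHA (390 ± 9.76). LDHA stood below LDHB in each library, at a ratio of 0.911 ± 0.00294. The liver isoforms PKLR and SLC2A2 had 0 counts.

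Protein-coding genes took most of the signal. Of 18729 rows matched to a protein-coding RefSeq gene, 10259 were expressed (54.8%), with 95.8% of the counts, and of 1403 matched long non-coding RNAs 185 were expressed (13.2%), with 0.866% of the counts. The highest genes with a LINC name were LINC00152 (70.4 ± 1.44 FPKM), LINC00657, also known as NORAD (56.3 ± 1.94), LINC00493, now named SMIM26 (51.2 ± 1.73), LINC00607 (39.9 ± 0.350) and LINC00704 (16.8 ± 0.404). Some of these names are older ones, and a LINC name alone does not show that a row is non-coding. At the other end, 0 of 393 olfactory receptor rows were expressed and 361 had 0 counts, 0 of 27 taste receptor rows and 0 of 94 keratin-associated protein rows were expressed. Of 69 histone rows 5 were expressed, led by HIST1H2BK (9.04 ± 0.357 FPKM). Replication-dependent histone mRNAs lack the poly(A) tail that mRNA kits commonly select for.

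A count of 0 was no reading of expression for at least 1 group of genes. The 0 counts of close paralogs elsewhere are also uncertain, since the handling of reads that match several genes is not stated. Of 24 rows that GENCODE places in the pseudoautosomal regions shared by the X and Y chromosomes, 22 had 0 counts in all 3 libraries, and the other 2, CD99 and SPRY3, held 4 counts in all. These include the mitochondrial carrier SLC25A6, the vesicle protein VAMP7, and the interleukin 3 receptor IL3RA. Their 0 counts are therefore left out of any statement on absence, and the cause was not tested.

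The 3 libraries were close to each other. Among 11278 genes with a mean of 100 counts or more, the median coefficient of variation was 3.84%, against 2.79% from counting alone. The common biological coefficient of variation estimated by edgeR was 3.77%. The edgeR value leaves out counting error, so it is not the same measure as the 3.84%. Despite its name, it may be technical here. The highest and lowest FPKM differed by 1.5-fold or more in 39 of these genes (0.346%). WT 4 was the lowest library in 32 of the 39 and WT 2 the highest in 24. The largest ratio was that of the row Metazoa_SRP, a signal recognition particle RNA name, at 69.1, 49.4 and 22.7 FPKM (ratio 3.04, 95% counting interval 2.65 to 3.52). HBB followed at 1.99 (1.76 to 2.26), then LOC100132247 (1.86), WTIP (1.73), NME2 (1.71), CORO7 (1.71), HIC1 (1.68), LOC23117 (1.67), ZNF205 (1.67) and LRP3 (1.65). The intervals cover counting error only. They set the highest against the lowest library in genes already picked by that ratio, so the 95% does not hold after this choice.

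The differences between libraries moved with base composition. The 30 genes lowest in WT 4 that have a GENCODE transcript had a median GC content of 64.2%, against 49.0% over all 10827 such genes. In the tenth of genes with the highest GC content the median level of WT 4 lay 0.20 lower than that of the other 2 libraries on the log2 scale, and in the tenth with the lowest it lay 0.06 higher. Across these genes, which are not independent replicates, Spearman's rho between GC content and a library's difference to the other 2 was -0.66 for WT 4, 0.60 for WT 2 and 0.27 for WT 1. The part of GC content in the single-gene differences was not tested.

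**Figure D5:**
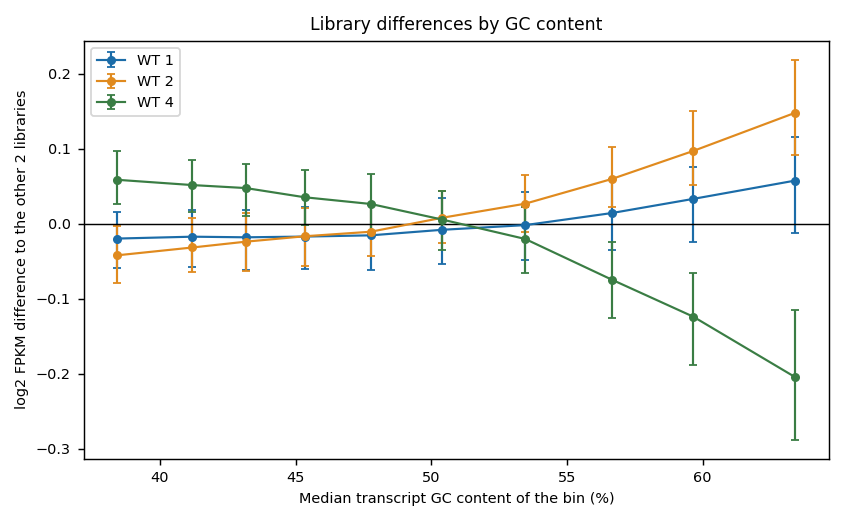
Median log2 FPKM difference of each library to the other 2 (vertical) in 10 bins of genes ordered by transcript GC content (horizontal, percent). Points are bin medians, error bars the lower and upper quartiles over the 1081 to 1085 genes of a bin, and colours the libraries (WT 1 blue, WT 2 orange, WT 4 green). WT 4 runs from 0.06 in the lowest bin to -0.20 in the highest, and WT 2 from -0.04 to 0.15.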

How the data were processed

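Per the labels, RNA was prepared with a stranded mRNA kit. Per the submitters' processing notes, STAR and HTSeq were used with hg19/GRCh37. Their versions, the annotation, the strand setting and the handling of reads that match several genes are not stated in those sources, so close paralogs and overlapping or antisense genes are uncertain. The authors deposited 1 table with raw counts and FPKM per gene name, per the file headers. Rows of miRNA hairpins, whose length is known, show that the deposited FPKM divide by 1.25 to 1.26 times the summed counts, so they are lower than FPKM per counted read. Of 28514 names, 22667 matched a RefSeq symbol or synonym, and 13 had been turned into dates (at most 0.196% of counts).

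From the deposited values, means, SDs, shares and ratios were computed with Python 3.11.15 (pandas 2.3.3, numpy 2.4.6, scipy 1.17.1), and the biological coefficient of variation with edgeR 4.0.16 in R 4.3.3, after a test on simulated data. A gene was called expressed at 1 FPKM in 3 of 3 libraries. Libraries were compared at a mean of 100 counts or more. With 3 libraries of 1 group the smallest exact two-sided p is 0.25, so no test was run. Genes were named by rule: PECAM1, CDH5, VWF and KDR, the 20 highest by FPKM, the 10 highest by counts, up to 4 highest and all 0-count members of each of 47 lists, lists of at most 12 members in full, the 5 highest LINC genes, the 3 highest of each family and the 10 largest ratios between libraries. Some genes that the rule names are not reported here. Other genes were chosen after their values were seen. The members and lists were chosen with earlier results of these data known. CCN3 and EIF4A1 have no row in the table. The authors' comparison table was not used here. Promoters come from RefSeq (GRCh38.p14) and were not compared with the hg19 files by position. Expressed and other genes were not compared for promoter features, since 77.4% of expressed rows matched, under the minimum of 80%.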

Additional observations from a re-analysis of the deposited data

How the results depend on the processing

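The number of expressed genes (11280) ran from 10058 at 2 FPKM to 13033 in TPM, and the number with 0 counts (8581) reached 11023 when up to 3 counts were allowed. The 10 highest genes held 6.01% of summed FPKM in place of 4.29% of counts. The 39 genes that differed between libraries became 1 at 2-fold, 4 at a mean count of 500 and 3215 with only a count in every library. They numbered 8 to 21 with 1 library left out: 8 without WT 4, 15 without WT 2 and 21 without WT 1. Fewer libraries can only lower this count. NR2F2 over HEY2 was 3.56 in log2 FPKM, 4.49 in counts not divided by length and 3.22 with 1 added, and EPHB4 over EFNB2 was 1.29, 1.49 and 1.18. Both kept their direction. Of 47 lists, the number of expressed members moved by over 1.5 times in 1 at 0.5 FPKM and in 1 at 2 FPKM, the neuron and glia list both times, and in 0 with a library left out. Of 32 levels, 0 moved beyond 1 SD with edgeR's TMM factors, while TPM, a rescaling, moved 32. Leaving out 1 of 3 libraries cannot move a mean beyond 1 SD and shows nothing about its stability. With the longest GENCODE transcript as gene length, chosen after seeing the data, 20 of 24 levels moved. TPT1, for example, fell from 1003 to 183 FPKM, so the order of the highest genes depends on the length used. No paired analysis was possible because only 1 group is described. Counts of a few reads limit genes under 0.1 FPKM.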

Other observations

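A few low transcripts, picked after their values were seen, stood higher in WT 2 than in the other 2 libraries. S100A9 had 12, 43 and 9 counts in WT 1, WT 2 and WT 4, S100A8, its partner in neutrophil calprotectin, had 6, 24 and 4, and PTPRC (CD45) had 4, 23 and 3. HBB was also highest in WT 2, at 597, 849 and 372 counts. The leukocyte marker list had summed levels of 10.7, 10.5 and 8.89 FPKM. Most of that is CD68, so the sum cannot show whether the low members rose in WT 2. Members of the list other than CD68 and PTPRC lay between 0 and 0.0890 FPKM in each library. The source of these reads was not tested.

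FOS and FOSB, immediate early genes induced within minutes by serum or handling, were among the 39 genes that differed by 1.5-fold between libraries. FOS stood at 21.4, 33.4 and 29.3 FPKM (ratio 1.56, 95% counting interval 1.47 to 1.65) and FOSB at 8.80, 13.7 and 10.4 (1.56, 1.45 to 1.66). Both were lowest in WT 1 and highest in WT 2. They too were picked after their values were seen, and the limit given above for the counting intervals holds here as well.

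Some ligand and receptor levels, picked after their values were seen, lay far apart in the same cells. APLN stood at 56.3 FPKM and its receptor APLNR at 0.0360. VEGFC stood at 24.8 FPKM and FLT4, a receptor for VEGF-C, at 0.879. Other receptors of the VEGF family lay nearer to VEGFC, with KDR at 20.7 FPKM and NRP2 at 21.3. IL1RL1 stood at 216 FPKM and its ligand IL33 at 0.669.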
